A study of Mus musculus with 24 samples.

Results

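The genes described here are 8 members of the insulin-like growth factor (IGF) axis, chosen by name: the ligand gene Igf2, the receptor genes Igf1r, Insr and Igf2r, the adaptor genes Irs1 and Irs2, the binding protein gene Igfbp2 and the protease gene Pappa2. The choice was made with earlier results of these data known. All 8 were found among the 46517 genes of the count files, and all 8 passed the filter on low counts. RNA came from βTC3 cells, a mouse insulinoma line from the Rip-Tag2 tumour model, in which SV40 T antigen is driven by the insulin promoter. The miR-23b line carried the plasmid PB-31 with the miR-23b cluster, whose transcript gives miR-24, miR-27b and miR-23b. The miR-137 line carried PB-31 with miR-137, and the control line carried PB-31 alone. Each line was kept for 7 days without doxycycline (no DOX) or for 7 days with doxycycline at 2 µg/ml (DOX), and both miRNA lines were also kept for 7 days with doxycycline and 7 more days without it (withdrawn). Each of these 8 groups had 3 libraries, plated in triplicate, for 24 libraries of polyA RNA in all. The labels name no untreated culture as old as the withdrawn ones and no control culture after withdrawal. They give no plate, run or date either, so DOX and any batch common to the no DOX cultures cannot be told apart. The sources used here do not state whether a line is 1 clone or whether the 3 libraries of a group come from separate experiments.

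IGF2 is a growth factor related to insulin that binds the IGF1 receptor and one form of the insulin receptor, and these tyrosine kinases signal through the adaptors IRS1 and IRS2 to PI3K and AKT. The IGF2 receptor, also known as the mannose 6-phosphate receptor, binds IGF2 and takes it to lysosomes. Binding proteins such as IGFBP2 hold IGFs outside the cell, and pappalysin-2, the product of Pappa2, cuts IGFBP3 and IGFBP5. Igf2 is imprinted and is switched on in the islet tumours of Rip-Tag mice, where it promotes growth.

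Libraries held 15759849 to 24144737 gene counts. All 15 beta cell markers read passed the filter on low counts, with summed levels of 19911 to 24261 CPM (counts scaled to library size) per library. Summed markers reached at most 65.3 CPM for other islet hormones, 4.52 CPM for fibroblasts, 1.24 CPM for endothelial cells, 4.50 CPM for immune cells and 0.350 CPM for acinar and ductal cells. The T cell marker Cd3e and the acinar marker Amy2a2 had 0 counts in every library, and the fibroblast marker Dcn had 12 counts over all 24. Highest in their lists were the fibroblast marker Col1a1 (2.00 to 4.11 CPM) and the immune marker Cd68 (1.74 to 3.79 CPM). With DOX the log2 fold change of Col1a1 was 0.46, -0.01 and 0.50 in the miR-23b, miR-137 and control lines. That of Cd68 was 0.80, 0.12 and -0.001. The endothelial sum was 0.610 to 0.740 CPM with DOX and 0.129 to 0.326 CPM without in the miR-23b line, 0.186 to 0.668 and 0.182 to 0.386 CPM in the miR-137 line, and 0.762 to 1.24 and 0.106 to 0.349 CPM in the control line. The sum of other islet hormones was 37.0 to 65.3 CPM in all DOX and withdrawn libraries, against 16.9 to 25.9 CPM in no DOX libraries, and its part in the members' changes with DOX was not tested. The induced loci followed the labels: Mir24-1 averaged 0.641, 104 and 0.211 unadjusted CPM in the no DOX, DOX and withdrawn miR-23b line, and Gm26871, the transcript that holds Mir137, averaged 4.35, 123 and 2.58 in the miR-137 line. On the first principal component the miR-23b DOX libraries lay apart, at 35.6 to 36.8, with all no DOX libraries at -26.4 to -21.1 and the rest at 5.61 to 11.7.

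Levels per transcript length, given as TPM (transcripts scaled to length and library size) in the authors' table, differed widely between the members. Igf2 averaged 6999 TPM over the 24 libraries, the third highest of all genes, and took 0.790% to 1.13% of the gene counts of a library. Igf2r averaged 73.3 TPM, Pappa2 20.7 TPM, Igfbp2 13.0 TPM, Insr 9.66 TPM, Irs2 7.46 TPM, Irs1 1.94 TPM and Igf1r 0.443 TPM. The ligand was thus far above its receptors, and among the kinases the insulin receptor gene was far above the IGF1 receptor gene. Within a library the TPM of Insr was 15.3 to 29 times that of Igf1r (median 21.7), and that of Irs2 was 2.83 to 4.80 times that of Irs1 (median 3.88). Igf1r rested on 48 to 112 counts per library and Igfbp2 on 47 to 389, so their values carry more counting error than those of the other members. The lowest counts of Igfbp2 were in the miR-23b line, at 47 to 74 with DOX and 64 to 84 after withdrawal.

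**Figure D1:**
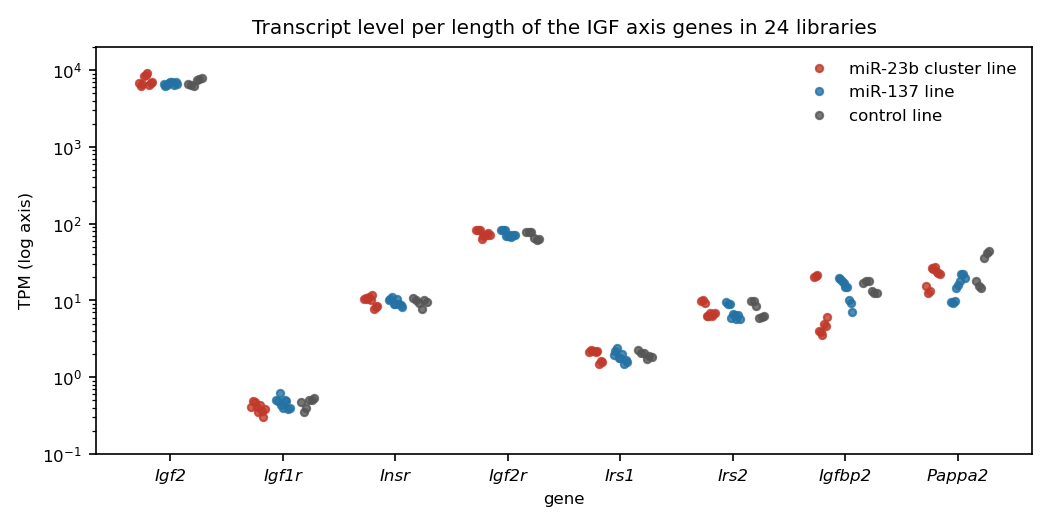
TPM of each member (log axis) in every library, with 1 point per library and colours for the line. Igf2 averages 6999 TPM and Igf1r 0.443 TPM, with the other members between 1 and 100 TPM in all libraries.

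With DOX against no DOX, 2 members rose and 5 fell in each of the 3 lines by edgeR's quasi-likelihood test at an adjusted p below 0.05. Of all 14866 genes tested, 57.4% were called in the miR-23b line, 42.9% in the miR-137 line and 37.8% in the control line. In every line the rising pair was Igf2 and Pappa2. Igf2r, Irs1, Irs2 and Igfbp2 fell in every line, together with Igf1r in the miR-23b line and Insr in the miR-137 and control lines. The 5 falls were 3 in the miR-23b line on the TPM scale and without its DOX or no DOX replicate 2. On the TPM scale they were 4 in the miR-137 and control lines, and 4 with DESeq2 in both miRNA lines. The median size of the members' log2 fold changes was 0.38, 0.27 and 0.30 in the miR-23b, miR-137 and control lines, against 0.23, 0.16 and 0.14 over all genes. Because the members were chosen with earlier results of these data known, these sizes and counts are a description only. In the miR-23b line 50.2% of all calls were higher with DOX, but 67.0% on the authors' TPM scale, which places more genes up in that line. In these bulk samples fewer cells of a type and less RNA per cell cannot be told apart.

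**Figure D2:**
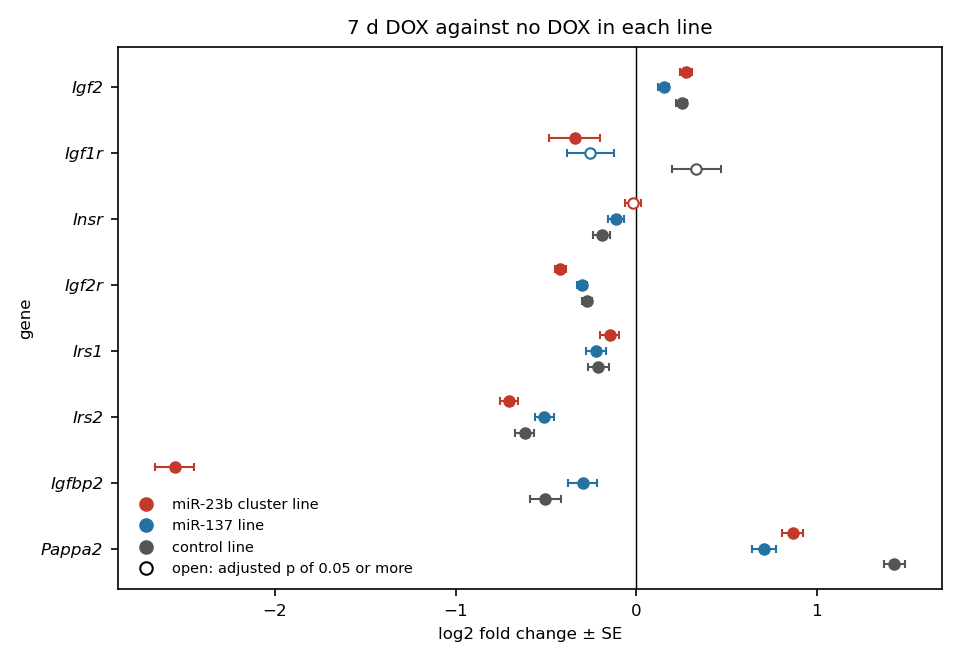
Log2 fold change of each member with 7 d DOX against no DOX in the miR-23b, miR-137 and control lines, with bars of 1 SE and filled points for an adjusted p below 0.05. Igf2 and Pappa2 lie right of 0 and Igf2r, Irs1, Irs2 and Igfbp2 left of it in all 3 lines, and Igfbp2 in the miR-23b line is the farthest point, at -2.56.

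Igf2 (ENSMUSG00000048583; GRCm38 chr7:142650766-142666816, minus strand) was modestly higher with DOX in each line. In the miR-23b line it stood at 10210, 10352 and 11091 CPM with DOX, against 9048, 8327 and 8743 CPM without. In the miR-137 line it stood at 9128, 9241 and 9013 CPM with DOX, against 8372, 8288 and 7983 CPM without. In the control line it stood at 9692, 9715 and 9731 CPM with DOX, against 8258, 8086 and 8143 CPM without. In none of the 3 lines did the DOX and no DOX libraries overlap. The log2 fold changes were 0.28 (SE 0.03, adjusted p = 1.73e-09) in the miR-23b line, 0.15 (SE 0.03, adjusted p = 1.66e-04) in the miR-137 line and 0.25 (SE 0.03, adjusted p = 4.24e-08) in the control line, and these 3 calls held in all 13 alternatives run for each. The response of the miR-23b line did not pass the test against that of the control line (difference 0.03, SE 0.05, adjusted p = 0.689), though on the TPM scale it did (0.15, adjusted p = 0.0303). It stood 0.13 above that of the miR-137 line (SE 0.05, adjusted p = 0.0286; 0.28 on the TPM scale), a call lost without miR-23b no DOX replicate 2, miR-23b DOX replicate 3, miR-137 no DOX replicate 1 or 2 or miR-137 DOX replicate 3 (0.09 to 0.12, adjusted p 0.0551 to 0.135). With DOX, Igf2 was 0.12 higher in the miR-23b line than in the control line (SE 0.03; 0.19 on the TPM scale). Without DOX the libraries of these lines did not overlap either, and Igf2 was 0.09 higher in the miR-23b line (SE 0.03, adjusted p = 0.0754). That value passed the test in 3 of 13 alternatives. In the miR-137 line it was lower than in the control line with DOX (-0.09, SE 0.03, adjusted p = 0.0329), a call lost without any control DOX replicate or miR-137 DOX replicate 1 or 3 (-0.09 to -0.08, adjusted p 0.0522 to 0.107).

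After withdrawal Igf2 averaged 8948 ± 259 CPM in the miR-23b line (SD, n = 3), below its DOX libraries (log2 fold change -0.24, SE 0.03, adjusted p = 6.79e-08; -0.37 on the TPM scale) and not called against no DOX (0.04, SE 0.03, adjusted p = 0.347). In the miR-137 line it averaged 9024 ± 143 CPM, overlapping the DOX libraries (-0.02, SE 0.03, adjusted p = 0.752), and stood 0.14 above no DOX (SE 0.03, adjusted p = 6.75e-04), a call lost on the TPM scale (0.06, adjusted p = 0.241). Igf2os, an antisense RNA, shares 98 exonic bases with Igf2, or 1.71% of its exonic length. Igf2os rose by 0.37 in the control line and by 0.21 in the miR-137 line and fell by 0.25 in the miR-23b line on the log2 scale, so in that line the pair moved apart. The sources used here do not state the strand setting of the counting, so reads in the shared bases cannot be told apart. GENCODE M21 also places Gm49394, a gene on the same strand, over 62.8% of Igf2's exonic length. Gm49394 is not among the genes of the count files, so no counts were given to it there.

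Igf1r (ENSMUSG00000005533; chr7:67952827-68233668, plus strand), the receptor tyrosine kinase for IGF1 and IGF2, fell with DOX in the miR-23b line, at low counts, and did not pass the test within the other two. It stood at 3.61, 3.05 and 3.88 CPM with DOX in the miR-23b line, against 3.88, 4.71 and 4.52 CPM without. In the miR-137 line it stood at 4.17, 3.95 and 4.79 CPM with DOX, against 4.69, 4.73 and 5.96 CPM without. In the control line it stood at 4.76, 4.80 and 4.77 CPM with DOX, against 4.24, 3.17 and 3.86 CPM without. The DOX and no DOX libraries overlapped in both miRNA lines and were apart in the control line. The log2 fold change was -0.34 (SE 0.14, adjusted p = 0.0377) in the miR-23b line, -0.25 (SE 0.13, adjusted p = 0.118) in the miR-137 line and 0.33 (SE 0.14, adjusted p = 0.0504) in the control line.

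Against the control line's response, that of Igf1r was lower by 0.68 in the miR-23b line (SE 0.20, adjusted p = 0.00587) and by 0.59 in the miR-137 line (SE 0.19, adjusted p = 0.0382), each as a difference of log2 fold changes. The first of these differences, -0.68, held in all 19 alternatives, with a size of -0.17 on the log2(TPM + 1) scale. Igf1r stood at 0.30 to 0.62 TPM, below the 1 added there, which makes all its log2 fold changes smaller on that scale. The second was -0.20 on the log2(TPM + 1) scale, and it was lost with DESeq2 (-0.59, adjusted p = 0.104), on the log2(TPM + 0.1) scale (-0.52, adjusted p = 0.0559) and without any 1 of 8 libraries, namely control no DOX replicates 2 and 3, control DOX replicates 1, 2 and 3, miR-137 no DOX replicate 3 and miR-137 DOX replicates 1 and 2 (-0.60 to -0.47, adjusted p 0.0519 to 0.140). The fall within the miR-23b line was lost without no DOX replicate 2 or 3 or DOX replicate 1 or 2 (-0.37 to -0.24, adjusted p 0.0549 to 0.204). It was also lost with DESeq2 (adjusted p = 0.0933), with no filter on low counts (adjusted p = 0.0617) and on the log2(TPM + 0.1) scale. On the log2(TPM + 1) scale it was lost too (-0.06, adjusted p = 0.264), and it held in 5 of 13 alternatives. The value in the control line passed the test without no DOX replicate 1 (0.43, adjusted p = 0.0312), with median-of-ratios size factors (0.34, adjusted p = 0.0489) and with a replicate block (0.34, adjusted p = 0.0351).

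Without DOX, Igf1r was at 5.12 ± 0.72 CPM in the miR-137 line and 3.76 ± 0.54 CPM in the control line (SD, n = 3 each), a difference that did not pass the test (log2 fold change 0.43, SE 0.14, adjusted p = 0.0791). With DOX, Igf1r was lower in the miR-23b line than in the control line (-0.46, SE 0.14, adjusted p = 0.00453). It had -0.12 on the log2(TPM + 1) scale, and was not called without miR-23b DOX replicate 2 (-0.36, adjusted p = 0.0505). After withdrawal it averaged 3.42 ± 0.40 CPM in the miR-23b line and 4.16 ± 0.60 CPM in the miR-137 line, overlapping the DOX libraries of each. Against no DOX the withdrawn miR-23b line was lower (-0.36, SE 0.15, adjusted p = 0.0478). That call was lost without no DOX replicate 2 or 3 or withdrawn replicate 1 or 2 (-0.39 to -0.28, adjusted p 0.0782 to 0.192). It was also lost with DESeq2 (adjusted p = 0.105), with no filter on low counts (adjusted p = 0.0712) and on the log2(TPM + 1) scale (-0.11, adjusted p = 0.0536). It held on the log2(TPM + 0.1) scale, among 6 of 13 alternatives.

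Insr (ENSMUSG00000005534; chr8:3122061-3279617, minus strand), the insulin receptor gene, changed little with DOX. It averaged 112 ± 3.6 CPM with DOX and 113 ± 3.5 CPM without in the miR-23b line, 104 ± 6.7 and 113 ± 6.5 CPM in the miR-137 line, and 97.0 ± 6.0 and 111 ± 5.9 CPM in the control line (SD, n = 3 each). The DOX and no DOX libraries of Insr overlapped in both miRNA lines and were apart in the control line. The fall in the control line was 0.19 on the log2 scale (SE 0.05, adjusted p = 9.67e-04) but was lost on the TPM scale (-0.12, adjusted p = 0.267). The fall in the miR-137 line (-0.11, SE 0.05, adjusted p = 0.0443) held in 6 of 13 alternatives. It was lost with DESeq2 (adjusted p = 0.0686), on the TPM scale (-0.14, adjusted p = 0.153) and without no DOX replicate 2 or 3 or DOX replicate 1 or 2 (-0.12 to -0.07, adjusted p 0.0779 to 0.303).

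The Insr response of the miR-23b line stood 0.17 above that of the control line (SE 0.06, adjusted p = 0.0303). That difference was lost on the TPM scale (0.17, adjusted p = 0.228) and without control no DOX replicate 1 or 2, control DOX replicate 1, miR-23b no DOX replicate 1 or miR-23b DOX replicate 3 (0.13 to 0.16, adjusted p 0.0651 to 0.126). The larger change of Insr in the miR-23b line came after withdrawal, which cannot be told apart from time in culture. The withdrawn libraries stood at 90.2, 91.0 and 94.0 CPM, below all DOX libraries (107.6 to 114.6 CPM) and all no DOX libraries (108.6 to 114.8 CPM). The log2 fold change was -0.28 against DOX (SE 0.05, adjusted p = 3.01e-06) and -0.30 against no DOX (SE 0.05, adjusted p = 2.15e-06). In the withdrawn miR-137 line Insr averaged 96.1 ± 2.0 CPM, which was 0.23 below no DOX (SE 0.05, adjusted p = 7.03e-05). Its step of -0.12 below DOX (SE 0.05, adjusted p = 0.0499) was lost with DESeq2 (adjusted p = 0.0557), on the TPM scale (-0.11, adjusted p = 0.321) and without DOX replicate 3 or any withdrawn replicate (-0.13 to -0.07, adjusted p 0.0510 to 0.333).

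Igf2r (ENSMUSG00000023830; chr17:12682406-12769664, minus strand), whose product clears IGF2, fell with DOX in all 3 lines. It stood at 694 to 716 CPM with DOX in the miR-23b line, against 937 to 942 CPM without, at 745 to 766 against 917 to 938 CPM in the miR-137 line, and at 683 to 740 against 844 to 876 CPM in the control line. The groups did not overlap in any line. Log2 fold changes were -0.42 (SE 0.03, adjusted p = 1.90e-15), -0.30 (SE 0.03, adjusted p = 4.20e-11) and -0.27 (SE 0.03, adjusted p = 5.31e-10) in the miR-23b, miR-137 and control lines, and all 3 held in the 13 alternatives run for each.

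The deeper fall of Igf2r in the miR-23b line than in the control line (difference -0.15, SE 0.04, adjusted p = 0.00440) vanished on the TPM scale, at 0.000197. The difference from the miR-137 line (-0.12, SE 0.04, adjusted p = 0.0199) was lost there too (-0.05, adjusted p = 0.484), and without miR-137 no DOX replicate 1 or miR-137 DOX replicate 2 (both -0.11, adjusted p 0.0515 and 0.0581). Without DOX, Igf2r was already higher in the miR-23b line than in the control line, by 0.12 (SE 0.03, adjusted p = 0.00633), and in the miR-137 line, by 0.11 (SE 0.03, adjusted p = 0.0291). The first of these calls was lost without control no DOX replicate 3 (0.11, adjusted p = 0.0518), the second without control no DOX replicate 2 or 3 or any miR-137 no DOX replicate (0.09 to 0.11, adjusted p 0.0716 to 0.166), and both on the TPM scale (adjusted p = 0.143 and 0.276). The second was also lost with only the compared groups in the fit (0.10, adjusted p = 0.0679). With DOX, Igf2r was higher in the miR-137 line than in the control line (0.08, SE 0.03, adjusted p = 0.0286; 0.13 on the TPM scale), a call lost without control DOX replicate 1 or miR-137 DOX replicate 2 or 3 (0.05 to 0.08, adjusted p 0.0548 to 0.213) and with only the compared groups in the fit (adjusted p = 0.0635).

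After withdrawal Igf2r stood part of the way back, though withdrawal and time in culture cannot be told apart. It averaged 939 ± 2.5, 703 ± 11 and 821 ± 15 CPM in the no DOX, DOX and withdrawn miR-23b line, and 930 ± 11, 756 ± 11 and 810 ± 12 CPM in the miR-137 line (SD, n = 3 each). The withdrawn libraries lay between the DOX and the no DOX libraries in both lines, without overlap. Against DOX the log2 fold change of Igf2r was 0.23 in the miR-23b line (SE 0.03, adjusted p = 2.35e-08; 0.10 on the TPM scale) and 0.10 in the miR-137 line (SE 0.03, adjusted p = 0.00735). The miR-137 value was lost on the TPM scale (0.0021, adjusted p = 0.980) and without miR-137 DOX replicate 1 (0.09, adjusted p = 0.0518). Against no DOX it was -0.19 and -0.20 (SE 0.03 each, adjusted p = 8.44e-07 and 3.48e-07).

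Irs1 (ENSMUSG00000055980; chr1:82233101-82291416, minus strand), an adaptor that links both receptors to PI3K, fell slightly with DOX. It averaged 39.2 ± 1.1 CPM with DOX and 43.3 ± 1.2 CPM without in the miR-23b line, 36.5 ± 2.3 and 42.5 ± 3.8 CPM in the miR-137 line, and 35.1 ± 1.4 and 40.5 ± 2.1 CPM in the control line (SD, n = 3 each). The groups overlapped only in the miR-137 line. Log2 fold changes were -0.15 (SE 0.06, adjusted p = 0.0214), -0.22 (SE 0.06, adjusted p = 0.00128) and -0.21 (SE 0.06, adjusted p = 0.00301) in the miR-23b, miR-137 and control lines. The miR-23b value was lost without no DOX replicate 2 or DOX replicate 2 (both -0.12, adjusted p 0.0941 and 0.104) and on the TPM scale (-0.01, adjusted p = 0.855). With DOX, Irs1 was higher in the miR-23b line than in the control line (0.16, SE 0.06, adjusted p = 0.0171). That call was lost without control DOX replicate 1 or miR-23b DOX replicate 1 (0.12 and 0.14, adjusted p 0.0914 and 0.0636). Gm9747, a gene on the opposite strand with 3 counts in all, shares 2822 exonic bases with Irs1, or 30.9% of its exonic length. Irs2 also shares 162 exonic bases, or 2.56% of its exonic length, with a gene on the opposite strand that had 3039 counts in all. With the strand setting not stated, the effect of these overlaps on the levels of Irs1 and Irs2 and on their ratio was not tested.

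Irs1 was lowest in the withdrawn cultures, at 31.1 ± 1.3 CPM in the miR-23b line and 31.4 ± 1.1 CPM in the miR-137 line. These libraries, at 29.7 to 32.6 CPM, lay below every other library of the series. Against DOX the log2 fold change of Irs1 was -0.33 (SE 0.06, adjusted p = 8.60e-06) in the miR-23b line and -0.21 (SE 0.06, adjusted p = 0.00344) in the miR-137 line. Against no DOX it was -0.48 (SE 0.06, adjusted p = 1.41e-08; -0.31 on the log2(TPM + 1) scale) and -0.44 (SE 0.06, adjusted p = 2.94e-08).

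Irs2 (ENSMUSG00000038894; chr8:10984681-11008458, minus strand), the adaptor most tied to beta cell mass in mice, fell with DOX in every line and stayed low after withdrawal. With DOX it stood at 50.9, 50.7 and 53.9 CPM in the miR-23b line, against 85.2, 88.0 and 79.6 CPM without. In the miR-137 line it stood at 51.1, 56.9 and 55.4 CPM with DOX, against 80.7, 77.5 and 74.3 CPM without, and in the control line at 50.6, 50.9 and 51.3 CPM with DOX, against 82.3, 80.3 and 72.1 CPM without. Every DOX library was below 57 CPM and every no DOX library above 72 CPM. Log2 fold changes were -0.71 (SE 0.05, adjusted p = 6.71e-15), -0.51 (SE 0.05, adjusted p = 1.07e-10) and -0.62 (SE 0.05, adjusted p = 1.10e-12) in the miR-23b, miR-137 and control lines, and all held in the 13 alternatives run for each.

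Neither miRNA line's Irs2 response passed the test against that of the control line (-0.09, SE 0.07, adjusted p = 0.368 for miR-23b; 0.11, SE 0.07, adjusted p = 0.377 for miR-137). The miR-23b response was lower than the miR-137 response by 0.20 (SE 0.07, adjusted p = 0.0297). That difference was lost on the TPM scale (-0.06, adjusted p = 0.644) and without miR-23b no DOX replicate 1 or 2, miR-23b DOX replicate 1 or 2, miR-137 no DOX replicate 3 or miR-137 DOX replicate 2 or 3 (-0.19 to -0.16, adjusted p 0.0517 to 0.110). Withdrawn cultures averaged 56.7 ± 2.4 CPM in the miR-23b line and 52.5 ± 3.5 CPM in the miR-137 line, still 0.57 and 0.56 below no DOX on the log2 scale (log2 fold changes -0.57 and -0.56, SE 0.05 each, adjusted p = 8.63e-12 and 5.17e-12). The small step of Irs2 above DOX in the miR-23b line (0.13, SE 0.05, adjusted p = 0.0390) was lost with DESeq2 (adjusted p = 0.0534), on the TPM scale (0.01) and without DOX replicate 1 or 2 or withdrawn replicate 2 or 3 (0.11 to 0.12, adjusted p 0.106 to 0.129).

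**Figure D3:**
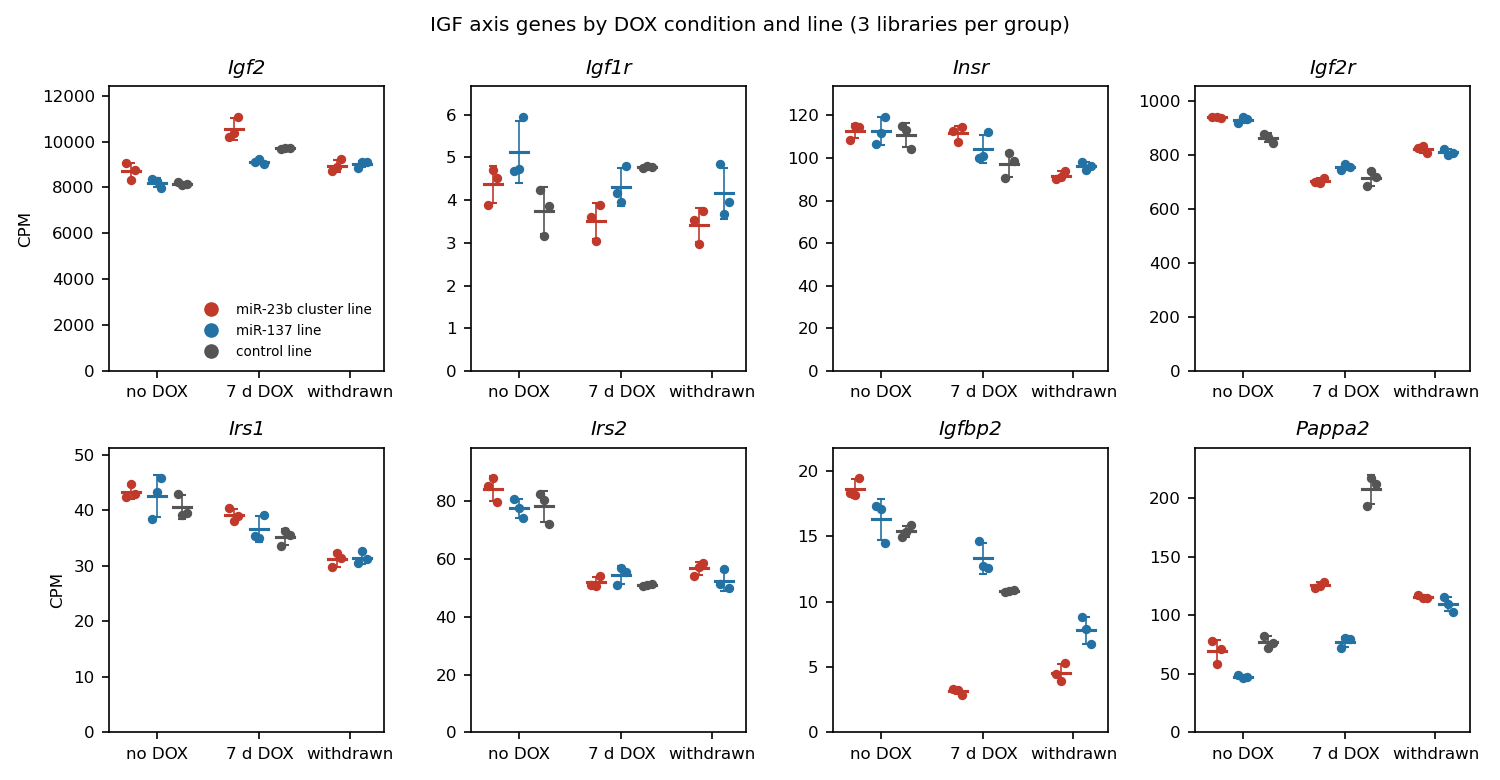
CPM of each member by DOX condition, with 1 point per library, a bar at the mean and an error bar of 1 SD for the 3 libraries of each group, and colours for the line. Igfbp2 drops to 3.14 CPM in the miR-23b DOX group, Pappa2 peaks at 208 CPM in the control DOX group, and Irs2 is below 59 CPM in every DOX and withdrawn library.

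Igfbp2 (ENSMUSG00000039323; chr1:72824503-72852474, plus strand), which encodes a secreted protein that binds IGF2, gave the largest fold change of the 8 members, in the miR-23b line. It stood at 3.29, 3.22 and 2.90 CPM with DOX in that line (72, 74 and 47 counts), against 18.3, 18.1 and 19.4 CPM without (283, 389 and 340 counts). In the miR-137 line it stood at 14.7, 12.7 and 12.6 CPM with DOX, against 17.3, 17.1 and 14.5 CPM without. In the control line it stood at 10.8, 10.8 and 10.9 CPM with DOX, against 14.9, 15.3 and 15.8 CPM without. The DOX libraries were well below the no DOX libraries in the miR-23b line, apart from them in the control line and overlapping in the miR-137 line.

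The fall of Igfbp2 with DOX was 2.56 on the log2 scale in the miR-23b line (log2 fold change -2.56, SE 0.11, adjusted p = 3.52e-22), a level 5.88-fold lower. It was 0.30 in the miR-137 line (-0.30, SE 0.08, adjusted p = 0.00298) and 0.50 in the control line (-0.50, SE 0.09, adjusted p = 8.31e-06). The miR-23b response was lower than that of the control line by 2.05 (-2.05, SE 0.14, adjusted p = 1.43e-14) and lower than that of the miR-137 line by 2.26 (-2.26, SE 0.14, adjusted p = 5.87e-16), and the alternatives ran from -2.07 to -1.76 and from -2.30 to -1.93. The miR-137 response did not pass the test against the control line (0.21, SE 0.12, adjusted p = 0.288). With DOX, Igfbp2 was 3.42-fold lower in the miR-23b line than in the control line (-1.77, SE 0.12, adjusted p = 7.74e-16) and higher in the miR-137 line than in the control line (0.30, SE 0.09, adjusted p = 0.00842). That higher level in the miR-137 line was no longer called without miR-137 DOX replicate 1 (0.22, adjusted p = 0.0884) or on the log2(TPM + 0.1) scale (0.28, adjusted p = 0.0605). Without DOX it was higher in the miR-23b line than in the control line (0.28, SE 0.08, adjusted p = 0.0272), a call lost when any 1 of the 6 libraries was left out (0.24 to 0.30, adjusted p 0.0508 to 0.123) with DESeq2 (adjusted p = 0.0728) and on the TPM scale (0.25, adjusted p = 0.170).

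After withdrawal the 2 lines went different ways. In the miR-23b line Igfbp2 stood at 4.43, 3.96 and 5.28 CPM, above all DOX libraries and far below the no DOX libraries. The log2 fold change was 0.52 against DOX (SE 0.14, adjusted p = 0.00241) and -2.03 against no DOX (SE 0.10, adjusted p = 8.61e-19). The miR-137 line had 8.81, 7.90 and 6.75 CPM, below all DOX and all no DOX libraries. There the log2 fold change was -0.77 against DOX (SE 0.09, adjusted p = 1.74e-08) and -1.06 against no DOX (SE 0.09, adjusted p = 5.42e-13). With no withdrawn control culture, a change with time in culture cannot be told apart from a change after withdrawal.

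Pappa2 (ENSMUSG00000073530; chr1:158711727-158980490, minus strand), the IGFBP protease gene, rose with DOX in every line, most in the control line. It stood at 123.5, 125.2 and 128.3 CPM with DOX in the miR-23b line, against 78.1, 58.7 and 71.4 CPM without. The miR-137 line had 72.5, 80.2 and 79.4 CPM with DOX, against 49.1, 46.3 and 46.9 CPM without. In the control line it stood at 193.7, 217.2 and 212.3 CPM with DOX, against 82.5, 72.4 and 76.0 CPM without. Groups did not overlap in any line, and the control DOX libraries were above all other libraries of the series.

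The log2 fold change of Pappa2 was 0.87 in the miR-23b line (SE 0.06, adjusted p = 1.59e-15), 0.71 in the miR-137 line (SE 0.06, adjusted p = 1.24e-11) and 1.43 in the control line (SE 0.06, adjusted p = 5.07e-22). Both miRNA lines thus rose less than the control line. The difference was -0.56 for miR-23b (SE 0.08, adjusted p = 7.67e-07) and -0.72 for miR-137 (SE 0.09, adjusted p = 1.56e-07), with -0.68 to -0.38 and -0.77 to -0.61 over the 19 alternatives of each. The miRNA lines' responses did not differ from each other by the test (0.16, SE 0.09, adjusted p = 0.164), though they did without miR-23b no DOX replicate 1 (0.25, adjusted p = 0.0243). Pappa2 was already lower in the miR-137 line than in the control line without DOX, at 47.4 ± 1.5 and 77.0 ± 5.1 CPM (log2 fold change -0.70, SE 0.07, adjusted p = 1.76e-09). With DOX this gap was -1.43 (SE 0.06, adjusted p = 2.27e-21), a level 2.69-fold lower, and the gap of the miR-23b line was -0.73 (SE 0.05, adjusted p = 1.95e-14).

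After withdrawal Pappa2 stood at 117.0, 114.8 and 115.0 CPM in the miR-23b line and at 115.4, 110.0 and 103.2 CPM in the miR-137 line. The miR-23b libraries were below the DOX libraries by a margin that did not pass the test (-0.12, SE 0.06, adjusted p = 0.0751), though it passed in 2 of 13 alternatives. The miR-137 libraries were above all their DOX libraries (0.50, SE 0.06, adjusted p = 1.28e-08). Both withdrawn lines stayed above no DOX, by 0.75 (SE 0.06, adjusted p = 6.38e-13) and by 1.21 (SE 0.06, adjusted p = 9.38e-19).

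**Figure D4:**
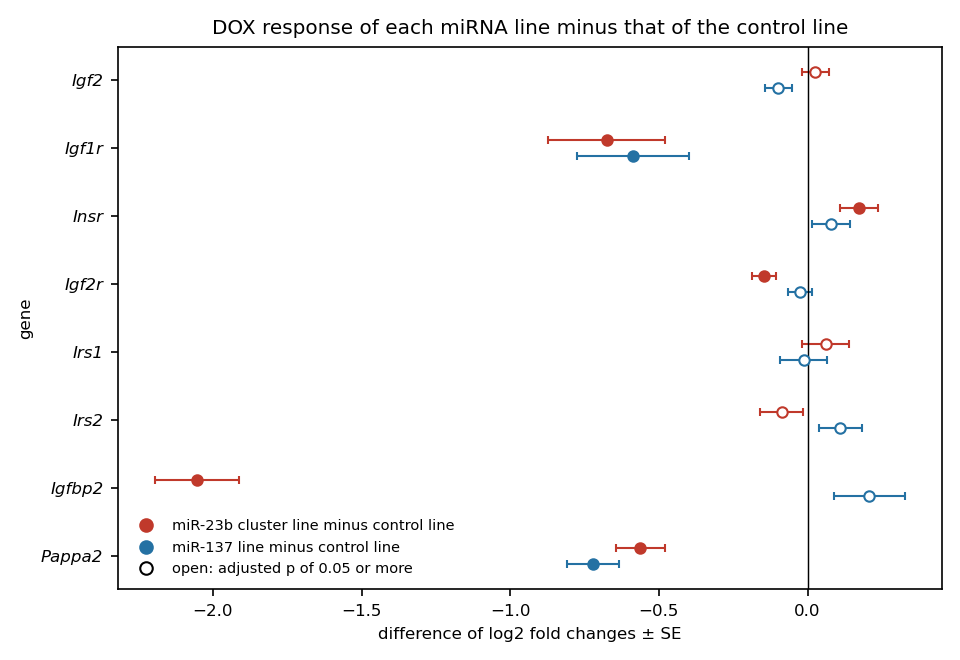
DOX response of each miRNA line minus that of the control line, as a difference of log2 fold changes with bars of 1 SE, and filled points for an adjusted p below 0.05. Igfbp2 lies at -2.05 for the miR-23b line and Pappa2 at -0.56 and -0.72 for the miR-23b and miR-137 lines.

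Counts of members over the remaining comparisons stood as follows. Against the control line's response, 1 member was higher and 4 were lower in the miR-23b line (all genes, 37.6% called), and 0 were higher and 2 lower in the miR-137 line (10.7%). The count of 0 was the same at an unadjusted p below 0.05 and with DESeq2, while the 2 lower members were 1 with DESeq2 and without any 1 of the 8 libraries named for Igf1r. Between the miRNA lines' responses, 1 was higher in the miR-23b line and 3 were lower (35.3%). These 4 calls were 2 on the TPM scale and without miR-23b no DOX replicate 2, miR-137 no DOX replicate 1 or miR-137 DOX replicate 2 or 3. With DOX, 3 were higher and 3 lower in the miR-23b line than in the control line (52.2%), and 2 higher and 2 lower in the miR-137 line (27.3%). The 4 calls of the miR-137 line were 2 without control DOX replicate 1 or miR-137 DOX replicate 1 or 3. Without DOX, 2 were higher and 0 lower in the miR-23b line than in the control line (6.37%), and 1 higher and 1 lower in the miR-137 line (2.70%). The count of 0 lower was 1 at an unadjusted p below 0.05 by edgeR, from Pappa2 (log2 fold change -0.16, unadjusted p = 0.0132, adjusted p = 0.117), and 0 with DESeq2. The 2 calls between the miR-23b and control lines were 0 on the TPM scale and without control no DOX replicate 3, 1 without control no DOX replicate 1 or 2 or miR-23b no DOX replicate 3, and 4 with no filter on low counts. Between the miR-137 and control lines the 2 calls were 1 on the TPM scale, with only the compared groups in the fit, and without control no DOX replicate 2 or 3 or any miR-137 no DOX replicate.

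Withdrawn against DOX, 3 members were higher and 3 lower in the miR-23b line (52.2% of all genes), and 2 higher and 3 lower in the miR-137 line (29.5%; 3 calls in place of 5 on the TPM scale). Withdrawn against no DOX, 1 was higher and 6 lower in the miR-23b line (39.8%), and 2 higher and 5 lower in the miR-137 line (43.4%). On the TPM scale the share of higher calls among all genes was 69.9% in place of 48.3% for the miR-23b minus control response, 73.9% in place of 47.8% for the miR-23b minus miR-137 response, 64.0% in place of 49.5% for miR-23b against control with DOX, and 33.7% in place of 56.3% for the same lines without DOX. It was 27.8% in place of 50.6% for miR-23b withdrawn against DOX, 41.6% in place of 53.7% for miR-137 against control with DOX, and 39.5% in place of 49.9% for miR-137 withdrawn against no DOX.

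The seeds of the induced miRNAs (bases 2 to 8, in capitals) are shown because their 7-base complements were read in the longest annotated 3′ untranslated region (UTR) of each member. Mature sequences are from RefSeq (GRCm38.p6), with a match for 3 of the 4 miRNAs requested, and miR-23b-3p is named only.
miR-137-3p: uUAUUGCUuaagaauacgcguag
miR-27b-3p: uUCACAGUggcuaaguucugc
miR-24-3p: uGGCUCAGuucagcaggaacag
The 3 seeds differ. The 7-base matches on the sense strand were AGCAATA for miR-137-3p, ACTGTGA for miR-27b-3p and CTGAGCC for miR-24-3p.

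Pappa2 held 3 matches to the miR-137-3p seed in a UTR of 3219 bases, and none to the others. Of 1713 UTRs of like length, 20.6% held at least 1 such match and 0.292% at least 3, and of all 12979 UTRs 10.6% held at least 1. The 3 sites are printed in the sense of the transcript (GRCm38, minus strand), with the match in capitals.
Pappa2, chr1:158713020-158713042: tgctctatatgaagAGCAATAtt
Pappa2, chr1:158712904-158712926: agtcttctactcctAGCAATAag
Pappa2, chr1:158712575-158712597: cctgacagagacagAGCAATAgt
Of these, the site in the window that starts at 158712904 is followed by an A. The levels set beside them are those above. In the miR-137 line Pappa2 was below the control line without DOX (-0.70) as well as with it (-1.43). Its response there was lower than that of the control line (-0.72), and it stood above DOX after withdrawal (0.50). The miR-23b line also rose less than the control line (-0.56). The miR-27b and miR-24 seeds had no match in Pappa2, and the miR-23b-3p seed was not searched. An action of miR-137 on Pappa2 was not tested.

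Insr held 1 match to the miR-137-3p seed and 2 to the miR-27b-3p seed in a UTR of 4747 bases. The miR-27b-3p matches are shown because the locus of that miRNA is induced in the miR-23b line. Insr averaged 112 CPM with DOX and 113 CPM without in that line, and it fell by 0.19 on the log2 scale in the control line. The difference between these responses, 0.17, held in 12 of 19 alternatives. An action of miR-27b on Insr was not tested.
Insr, chr8:3155454-3155476: cctgtggagggctaACTGTGAac
Insr, chr8:3151809-3151831: tggtgggcagtatcACTGTGAga
The site in the window that starts at 3155454 is followed by an A. Of 912 UTRs of like length, 43.8% held at least 1 miR-27b-3p match and 12.2% at least 2. Irs1 held 1 match to each of these miRNAs. In Igf2, Igf1r, Igf2r, Irs2 and Igfbp2 none of the 3 motifs was found, and the UTR of Igfbp2 read here is short, at 312 bases. A match is a description of the letters and not a binding site.

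Around the members, 37 of 47 other genes listed for the pathway passed the filter on low counts. With DOX, 12 rose and 18 fell in the miR-23b line, 9 rose and 14 fell in the miR-137 line, and 7 rose and 15 fell in the control line. The called shares were 81.1%, 62.2% and 59.5% in the miR-23b, miR-137 and control lines, against 57.4%, 42.9% and 37.8% of all genes. Their median log2 fold changes were -0.09, -0.07 and -0.05, against 0.01, 0.00 and 0.01 over all genes tested. Against the control response 15 were higher and 7 lower in the miR-23b line, and 3 higher and 4 lower in the miR-137 line, or 59.5% and 18.9% of them called, against 37.6% and 10.7% of all genes. This list and its roles were also chosen with earlier results of these data known, so shares set against all genes are a description only.

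**Figure D5:**
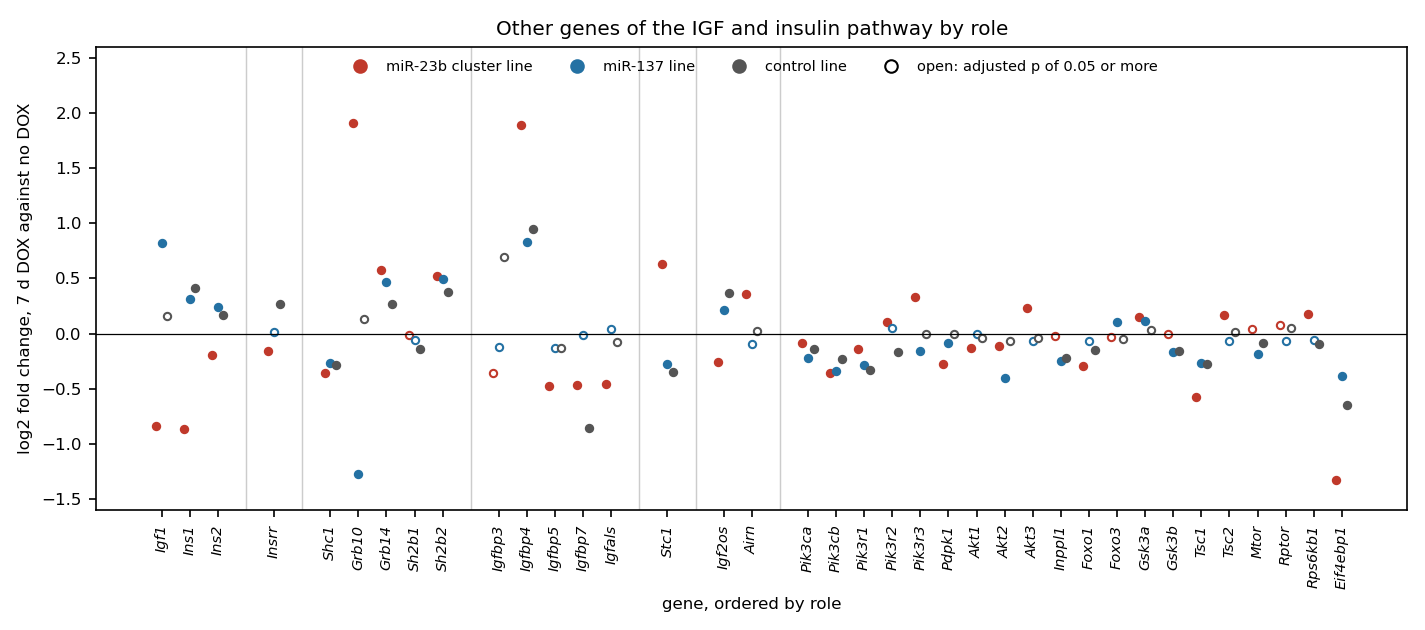
Log2 fold change with 7 d DOX against no DOX for the 37 other pathway genes, ordered by role, in the miR-23b, miR-137 and control lines, with filled points for an adjusted p below 0.05. In the miR-23b line Ins1 lies at -0.87 and Igfbp4 at 1.89, and Eif4ebp1 is below 0 in all 3 lines.

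Among the other ligands, all 3 fell in the miR-23b line, all 3 rose in the miR-137 line and 2 rose in the control line. The insulin gene Ins1 fell by 0.87 in the miR-23b line (SE 0.04, adjusted p = 3.93e-20), where it rose in the control line by 0.41 (SE 0.04). Ins1 averaged 1063 CPM with DOX and 1940 CPM without in the miR-23b line, and 2495 and 1872 CPM in the control line. Ins2 fell by 0.20 in the miR-23b line (SE 0.03) and rose by 0.24 and 0.16 in the miR-137 and control lines. Igf1, whose product is the other IGF, stood near 1 CPM, with 35 and 56 counts over the miR-23b DOX and no DOX libraries (log2 fold change -0.84, SE 0.30, adjusted p = 0.0167). Ins1 and Ins2 are near copies, and reads aligned to more than 1 place were not counted. The insulin receptor-related gene Insrr fell in the miR-23b line (-0.16, SE 0.06) and rose in the control line (0.27, SE 0.05).

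Of 5 other IGF binding genes tested, Igfbp4 rose in all 3 lines: by 1.89 in the miR-23b line (SE 0.12, adjusted p = 1.30e-16), by 0.83 in the miR-137 line (SE 0.13) and by 0.95 in the control line (SE 0.13). The miR-23b response of Igfbp4 exceeded the control response by 0.94 (SE 0.18, adjusted p = 7.34e-05), so it rose more in the line where Igfbp2 fell most. Igfbp4 averaged 14.6 ± 0.55 CPM with DOX in the miR-23b line and 3.96 ± 0.88 CPM without. Igfbp5, a substrate of pappalysin-2, fell in the miR-23b line (-0.48, SE 0.12, adjusted p = 7.60e-04). Igfbp3, the other substrate, stayed below 1.11 CPM in every library. Igfbp7, a low-affinity IGF binder, fell in the miR-23b and control lines (-0.47, SE 0.09, and -0.86, SE 0.09) and had -0.01 in the miR-137 line (adjusted p = 0.907). Stc1, which encodes a stanniocalcin that inhibits pappalysins, rose in the miR-23b line by 0.63 (SE 0.05, adjusted p = 1.10e-12) and fell in the miR-137 and control lines (-0.27, SE 0.06, and -0.34, SE 0.06).

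Of 5 other adaptors tested, 3 rose and 1 fell in the miR-23b line, and 2 rose and 2 fell in each of the other lines. Shc1, which links the receptors to RAS, fell in all 3 (-0.36, -0.26 and -0.28, SE 0.04 each, in the miR-23b, miR-137 and control lines). Grb14, an inhibitory adaptor of the insulin receptor, rose in all 3 (0.57, 0.47 and 0.27, SE 0.07 each). Grb10, another, went opposite ways in the miRNA lines (1.91, SE 0.22, in the miR-23b line and -1.27, SE 0.30, in the miR-137 line), on only 149 and 35 counts over the DOX and no DOX libraries of the miR-23b line and 24 and 58 of the miR-137 line.

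Of 20 PI3K, AKT and mTOR genes, 6 rose and 9 fell in the miR-23b line, 2 rose and 11 fell in the miR-137 line, and 0 rose and 11 fell in the control line by edgeR. The called shares were 75.0%, 65.0% and 55.0%, against 57.4%, 42.9% and 37.8% of all genes in these lines. In the control line 0 were higher at an unadjusted p below 0.05 as well, and Rptor had the highest value (0.05, adjusted p = 0.336). Eif4ebp1, a translation repressor held off by mTORC1, fell in all 3 lines (-1.33, SE 0.06, in miR-23b; -0.38, SE 0.06, in miR-137; -0.65, SE 0.06, in control). Tsc1, an inhibitor of mTORC1, fell most in the miR-23b line (-0.57, SE 0.04), against -0.26 and -0.28 in the miR-137 and control lines (SE 0.04 each). Akt2, a kinase of insulin signalling, fell by 0.41 in the miR-137 line (-0.41, SE 0.03, adjusted p = 3.16e-13), with 0.34 below the control response (-0.34, SE 0.05, adjusted p = 1.24e-06). Akt2 averaged 107 ± 1.9 CPM with DOX and 142 ± 1.8 CPM without in that line, and 141 ± 3.2 CPM after withdrawal.

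Genes whose log2 CPM followed each member most closely over the 24 libraries were ranked by Pearson's r among 10477 genes of at least 5 CPM. These libraries share lines, DOX condition and any batch, so r is a description only. The nearest to Igf2 were Cdh4 (r = 0.95) and Tspan7 (0.92), to Igf2r Slc7a2 (0.98) and Pi4ka (0.96), to Irs2 Arfgef2 (0.97) and Arhgef12 (0.97), to Igfbp2 Psap (0.95) and Aldoa (0.95), and to Pappa2 Mdm1 (0.95) and Dmbx1 (0.95). The nearest to Insr were Irs1 (0.92), itself a member, and Amer1 (0.92), and to Irs1 Madd (0.94) and Tmem178b (0.94). Igf1r had no close follower, with Zfp654 (0.67) and F13a1 (0.67) at the top. It rested on only 48 to 112 counts per library, and the part of counting error in these low values was not tested.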

How the data were processed

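PolyA RNA of 24 libraries was sequenced from a stranded kit, per the labels' protocols. Per the submitters' processing notes, the tools were featureCounts, RSEM 1.2.19, HTSeq 0.6.1, STAR 2.4.0g and cutadapt 1.3, with builds GRCm38 and mm10. The sources used here do not say which tool made which table, nor the strand setting. The deposited counts are raw reads per gene, and the authors' second table holds TPM, used for levels per length and as an alternative. Reads outside genes were 9.62% to 12.1% and multiply aligned reads 25.4% to 27.7% of those listed. Symbols and coordinates came from GENCODE M21 (GRCm38), which matched 46005 of 46517 genes.

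The counts were tested with edgeR 4.0.16 under R 4.3.3, using filterByExpr, TMM, 8 group means and the quasi-likelihood test over 14 comparisons, with Benjamini-Hochberg adjustment over 14866 genes and a threshold of 0.05. CPM used TMM-scaled library sizes, and SE is the log2 fold change over the square root of F. Errors of levels are SD with n = 3. Alternatives used DESeq2 1.42.0, limma 3.58.1 on log2(TPM + 1) or log2(TPM + 0.1), other scalings, no filter, a replicate block and each library left out. The test was checked on simulated data. P-values reflect only how the 3 libraries of each group varied, which may be technical. Replicate pairs differed by more than sampling noise (chi-square per gene 1.49 to 3.91). One gene of the pathway list is not reported here. Members and gene lists were chosen with earlier results of these data known. The text names the 8 members, the other pathway genes with the largest changes per role, and the 2 nearest genes to each member by r.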

Additional observations from a re-analysis of the deposited data

Results flagged for a closer look

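Differences between lines in the DOX response passed edgeR's quasi-likelihood test for the following members, each given as a difference of log2 fold changes. Between the miR-23b and control lines the values were -0.68 for Igf1r, 0.17 for Insr, -0.15 for Igf2r, -2.05 for Igfbp2 and -0.56 for Pappa2. Between the miR-137 and control lines they were -0.59 for Igf1r and -0.72 for Pappa2. Between the miR-23b and miR-137 lines they were 0.13 for Igf2, -0.12 for Igf2r, -0.20 for Irs2 and -2.26 for Igfbp2. No group had more than 3 libraries, so no library was tested as standing apart from its group.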

How the results depend on the processing

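Of 112 results (8 members in 14 comparisons), 79 kept their direction and their side of the threshold in every alternative run, and 33 did not in at least 1. With limma on log2(TPM + 1), 94 were unchanged in call, 15 lost it, 2 gained it and 1 turned: the Igf2r difference between the miR-23b and control responses, 0.000197 there and 0.000427 with log2(TPM + 0.1), against -0.15 on counts; the cause was not tested. DESeq2 kept 104 of 112, and median-of-ratios size factors 111. The log2(TPM + 0.1) scale moved the median log2 fold change of all genes by at most -0.107, for miR-23b withdrawn against DOX, and by 0.104 for the miR-23b minus miR-137 response. Of 14 shares of called genes, here all of the 14866 genes tested on counts, 12 stayed within 1.5 times under every alternative. For miR-23b against control without DOX the share was 6.37%, against 2.85% and 2.76% on log2(TPM + 1) and log2(TPM + 0.1), and 3.13% to 4.53% with 1 library left out; it moved by over 1.5 times without control no DOX replicate 2 or any miR-23b no DOX replicate. For miR-137 against control without DOX it was 2.70%, against 1.02% and 0.982%, and 1.14% to 1.98%; it did so without control no DOX replicate 2 or 3 or miR-137 no DOX replicate 1 or 2. The 33 pairs of same-numbered libraries had correlations of -0.05 to 0.08, none over 0.1. Still, 20 of 24 libraries correlated best with libraries of their own number. The numbers may thus mark a weak link between groups, which the main fit leaves out. With a replicate block 109 of 112 results kept their call and 3 of Igf1r gained one. These were 0.34 for control DOX against no DOX, 0.44 for miR-137 against control without DOX and -0.30 for miR-137 withdrawn against no DOX. Depth limits Igf1r, at 48 to 112 counts per library, and Igfbp2 in the miR-23b line, at 47 to 74 counts with DOX and 64 to 84 after withdrawal.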
